A study of Mus musculus with 12 samples.

Results

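The lysyl oxidase family consists of 5 genes, Lox, Loxl1, Loxl2, Loxl3 and Loxl4, which were taken by symbol from the deposited count table, and all 5 were among its 25171 loci. The family was picked because Lox was far higher in Myh6-tg than in Myh6-ctl hearts, so its members' values in that comparison are given as a description, without a test. RNA was sequenced from the hearts of 12 mice, 3 in each of 4 groups, and in every mouse the Rosa26 site held NOTCH2NLC with 98 GGC repeats, kept silent by a stop sequence between loxP sites. EIIa-tg mice (spelled E2a-transgenic in the labels) also carried EIIa-Cre, which removes the stop ubiquitously, while the EIIa-ctl mice lacked this Cre, and both were 30 days old. Mice of both Myh6 groups were 90 days old and by their labels carried Myh6-creERT2, a Cre that is made in cardiomyocytes and activated by tamoxifen, although the Esr1 counts of the Myh6-tg libraries went against this label. From day 60 the Myh6-tg mice received 3 injections of tamoxifen (75 mg/kg, dissolved in corn oil at 20 mg/ml), and the Myh6-ctl mice received the oil alone. No mouse received tamoxifen without the transgene, so the drug, the Cre that it activates and the expressed repeat cannot be told apart in the Myh6 comparison. The difference in Esr1 counts between the Myh6 groups cannot be separated from these either.

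Lysyl oxidases are copper-dependent enzymes of the extracellular matrix that oxidise lysine side chains of collagen and elastin, which then form the covalent cross-links that make fibres stiff and insoluble. Lox and Loxl1 are made as proenzymes with a propeptide that proteases such as Bmp1 remove, and Loxl1 is known for its part in elastic fibre assembly. Loxl2, Loxl3 and Loxl4 carry scavenger receptor cysteine-rich domains in place of the propeptide, and Loxl2 and Loxl3 are also known to act with the transcription factor Snai1. In the heart, cross-linked collagen is a known component of fibrosis, and fibroblasts are a main source of these enzymes.

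The part of the coding sequence that binds copper is shown because the enzymes depend on it and because it shows how far the members differ in bases there. Each line gives 33 bases of the GENCODE M21 transcript on the coding strand, 5′ to 3′, with the bases that are the same in all 4 genes in capitals.
Loxl1: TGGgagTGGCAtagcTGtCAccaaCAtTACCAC
Loxl2: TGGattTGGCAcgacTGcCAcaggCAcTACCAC
Loxl3: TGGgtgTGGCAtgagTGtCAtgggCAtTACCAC
Loxl4: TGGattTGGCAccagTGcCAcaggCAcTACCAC
These 11 codons begin at codon 476 of 607 in Loxl1, 622 of 776 in Loxl2, 602 of 754 in Loxl3 and 607 of 758 in Loxl4. Of the 33 bases 20 were the same in all 4, and pairs differed at between 2 bases (Loxl2 and Loxl4) and 12 bases (Loxl1 and Loxl4). The site was found by searching the translations of all 5 members for a pattern that fixes 8 of the 11 residues, 4 of them histidines. That these 8 residues were the same in all 5 is therefore set by the search, and so are most of the shared bases. Over whole transcripts, runs of 31 bases were shared only between Lox and Loxl1, which had 2 in common, and in none of the other 9 pairs.

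In GRCm38 with the GENCODE M21 annotation, Lox (ENSMUSG00000024529) is on the minus strand of chromosome 18 from 52516067 to 52529867. Loxl1 (ENSMUSG00000032334) is on the minus strand of chromosome 9 from 58287738 to 58313186. Loxl2 (ENSMUSG00000034205) is on the plus strand of chromosome 14 from 69609068 to 69695834. Loxl3 (ENSMUSG00000000693) is on the plus strand of chromosome 6 from 83034173 to 83052562, and Loxl4 (ENSMUSG00000025185) is on the minus strand of chromosome 19 from 42593982 to 42612813. All 5 are protein-coding genes on different chromosomes. Loxl3 shares 535 exonic bases (11.6% of its exons) with Htra2 on the opposite strand, Loxl2 shares 301 (5.57%) with the antisense gene Gm27177, and Lox shares 30 with AC161119.1. Whether strand was used in counting is not given in the sources used here, so reads in those bases cannot be told apart. Htra2 itself was at 18.8 ± 2.96 CPM (library-scaled read counts, SD, n = 3) in Myh6-tg hearts against 19.3 ± 6.01 in their controls.

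Between 38343106 and 50969834 reads were counted per heart, and levels are given as CPM (read counts scaled to the library total) normalised by the trimmed mean of M values (TMM), on which scale the floor of 3 counts is 0.0559 to 0.0822 CPM. The 13 protein-coding mitochondrial genes took 15.5% to 18.6% of the counts in Myh6-tg and 28.5% to 38.3% in the other hearts. By Y-linked counts replicate 1 of every group was male and the others were female, so sex was balanced between groups. Cardiomyocyte markers summed to between 10175 and 44802 CPM, while neural markers summed to between 2.89 and 7.49 CPM, which bears on an extraction label that names brain tissue. Esr1 is the oestrogen receptor gene, a form of which makes up the ER part of the inducible Cre. It was at 1027 to 2336 CPM in Myh6-ctl but at 0.988 to 2.49 CPM in the libraries labelled Myh6-tg. EIIa-ctl hearts, which lack the inducible Cre, had 0.411 to 1.24 CPM. The labels, however, give both Myh6 groups the same Cre. The transcript of the transgene was not analysed here, so the direction of every Myh6 comparison rests on the labels. EIIa-tg replicates 2 and 3 carry other genotype codes (e3a and e4a) and were grouped by their titles.

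Loxl1 was the most abundant member in the controls and in EIIa-tg hearts, and Lox was the most abundant in Myh6-tg hearts. Levels of different genes were compared by the deposited FPKM values, which are scaled to transcript length. In EIIa-ctl hearts the order was Loxl1 (15.0 ± 4.63 FPKM, SD, n = 3), Loxl2 (7.79 ± 3.17), Loxl3 (1.68 ± 0.133), Lox (1.15 ± 0.249) and Loxl4 (0.289 ± 0.117), with no overlap between neighbours. The order in Myh6-ctl hearts was Loxl1 (16.8 ± 3.40 FPKM), Loxl2 (5.97 ± 2.08), Lox (2.12 ± 0.350), Loxl3 (1.86 ± 0.628) and Loxl4 (0.405 ± 0.405). There Lox and Loxl3 overlapped and cannot be ranked. In EIIa-tg hearts Loxl1 led with 26.5 ± 5.01 FPKM, followed by Loxl2 (8.51 ± 3.52), Lox (5.12 ± 2.27), Loxl3 (2.38 ± 0.240) and Loxl4 (0.696 ± 0.481). Here it was Loxl2 and Lox that overlapped, and Lox, which lay below Loxl3 in EIIa-ctl, lay above Loxl3 in every heart. In Myh6-tg hearts Lox reached 153 ± 37.9 FPKM, followed by Loxl1 (83.7 ± 23.8), Loxl2 (29.8 ± 17.0), Loxl3 (22.3 ± 8.498) and Loxl4 (2.03 ± 0.232). Lox exceeded Loxl1 1.82-fold in the means and in all 3 hearts, whereas Loxl2 and Loxl3 overlapped.

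The family's summed level was 290.3 ± 86.6 FPKM in Myh6-tg hearts, against 27.1 ± 5.45 in their controls, and 43.2 ± 9.85 in EIIa-tg against 25.9 ± 7.45 in EIIa-ctl hearts. Lox supplied 53.2% ± 3.54 of that sum in Myh6-tg hearts, 8.08% ± 2.28 in their controls, 11.7% ± 3.91 in EIIa-tg hearts and 4.83% ± 2.03 in EIIa-ctl hearts. Loxl1 supplied 28.9% ± 0.752, 62.1% ± 6.25, 61.7% ± 3.07 and 57.7% ± 3.38 in the same order of groups. A share is a ratio within a heart and does not depend on how hearts are scaled to each other. The plot of shares shows that Lox displaced Loxl1 as the main transcript in each Myh6-tg heart, where its lowest share was 51.1%.

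**Figure D1:**
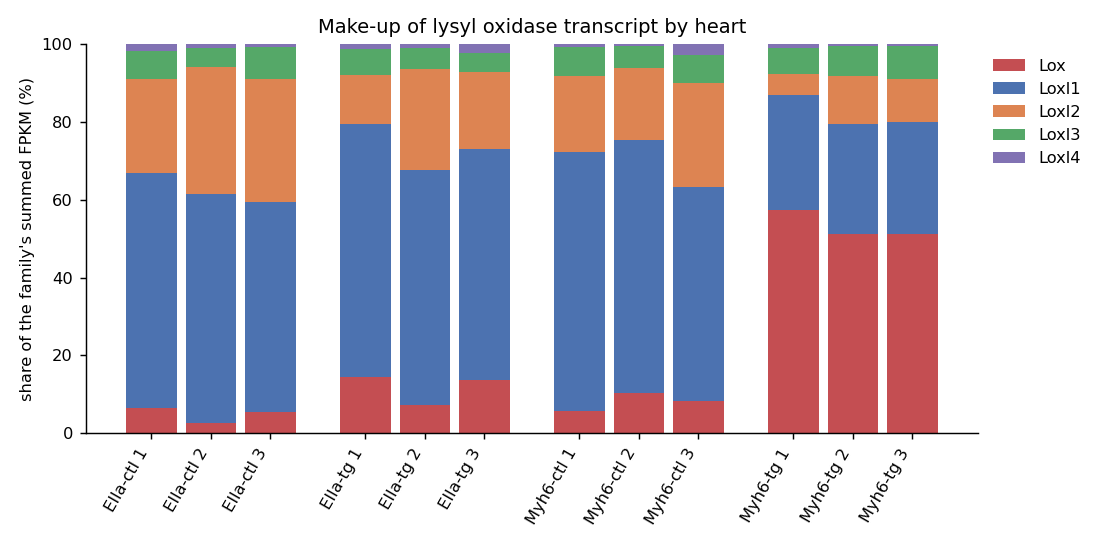
Stacked bars show the share (%) of each lysyl oxidase gene in the family's summed FPKM, with 1 bar for each of the 12 hearts. Lox takes between 51.1% and 57.3% in Myh6-tg hearts and at most 14.4% in any other heart.

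Lox, which encodes the founding member of the family, was lowest in EIIa-ctl hearts and had the widest range of the 5 members over the 12 hearts. Its TMM-normalised level was 7.25, 4.30 and 6.22 CPM in the 3 EIIa-ctl hearts and 23.1, 13.1 and 30.5 CPM in the 3 EIIa-tg hearts, in the order of replicates. Every EIIa-tg heart lay above every EIIa-ctl heart. Myh6-ctl hearts had 9.14, 11.96 and 10.6 CPM, and Myh6-tg hearts had 454, 584 and 636 CPM. Thus the lowest Myh6-tg heart was above the highest heart of any other group (30.5 CPM), and the group means of 10.6 ± 1.41 and 558 ± 93.5 CPM (SD, n = 3) differed 52.8-fold. The counts behind these values ranged from 164 to 34095 reads per heart.

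Loxl1, the family's elastic fibre enzyme, had 50.4, 73.1 and 44.7 CPM in EIIa-ctl and 77.6, 82.2 and 98.4 CPM in EIIa-tg hearts. The highest control and the lowest EIIa-tg heart were close but did not overlap. In the Myh6 groups the levels of Loxl1 were 78.8, 55.5 and 53.2 CPM in controls and 178, 241 and 268 CPM in Myh6-tg hearts, again without overlap. The means were 62.5 ± 14.1 and 229 ± 46.2 CPM, a ratio of 3.66.

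Loxl2, one of the scavenger receptor members, was the member with the widest relative spread among Myh6-tg hearts. EIIa-ctl hearts had 32.7, 65.8 and 42.2 CPM, and EIIa-tg hearts had 24.0, 56.7 and 53.4 CPM, so these groups overlapped. Myh6-ctl hearts had 37.3, 25.7 and 42.0 CPM. Myh6-tg hearts had 49.9, 172 and 166 CPM, and the SD of 68.8 was more than 50% of the mean of 129 CPM. The male heart, Myh6-tg replicate 1, stood well below the other two and only a little above the highest Myh6-ctl heart. In that heart the 8 activated fibroblast markers summed to 473 CPM against 1431 and 1754 in the other two, and the 8 cardiomyocyte markers to 30211 against 13495 and 10175. The part of these differences in Loxl2 was not tested.

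Loxl3, the other member known as a Snai1 partner, was held within narrow limits at day 30, with 7.58, 7.43 and 8.60 CPM in EIIa-ctl and 9.93, 9.14 and 9.93 CPM in EIIa-tg hearts. The groups did not overlap, although their means differed only 1.23-fold. Myh6-ctl hearts had 11.2, 5.83 and 8.53 CPM and Myh6-tg hearts 50.9, 79.6 and 95.8 CPM, which is a ratio of means of 8.87. Htra2, which overlaps Loxl3 on the other strand, had a log2 fold change of -0.02 ± 0.25 (SE) in that comparison.

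Loxl4, the least abundant member in all 4 groups, had 1.61, 1.44 and 0.685 CPM in EIIa-ctl and 1.77, 1.47 and 4.33 CPM in EIIa-tg hearts. A single EIIa-tg heart, replicate 3, made up the higher mean, and the groups overlapped. In Myh6-ctl hearts it had 0.952, 0.624 and 2.93 CPM, again with 1 heart apart, and in Myh6-tg hearts 6.45, 5.91 and 6.62 CPM. The Myh6-tg values were the closest together of any member, with an SD of 0.368 on a mean of 6.33 CPM. At 24 to 355 reads per heart these values were well above the floor of 3 counts.

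**Figure D2:**
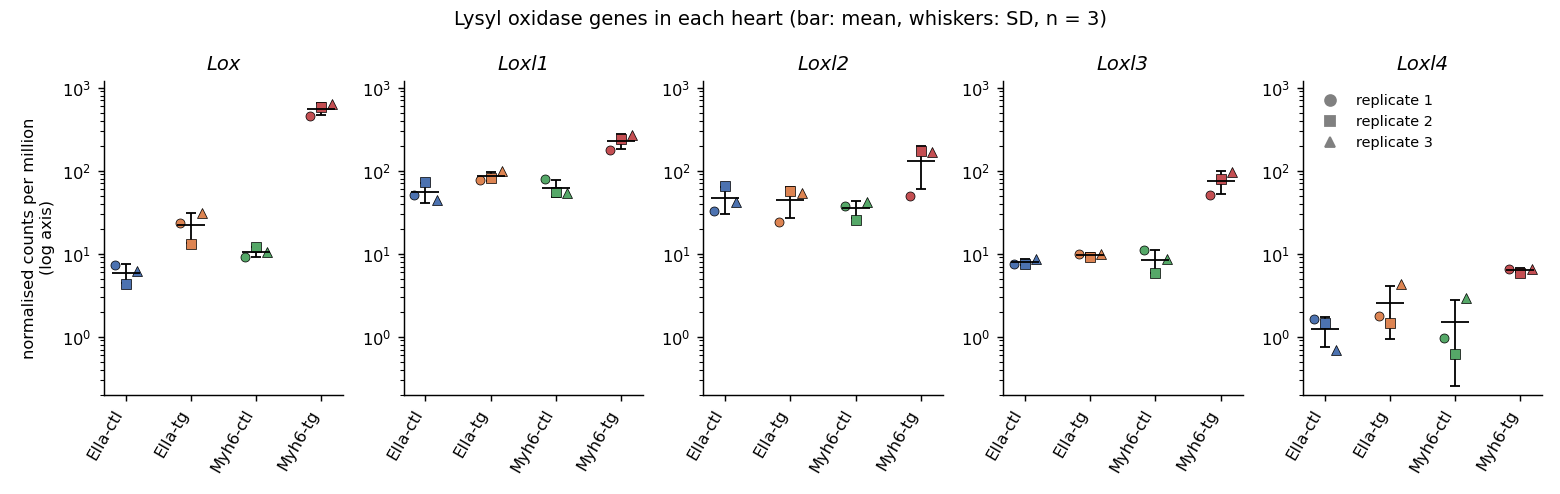
Each panel shows the TMM-normalised CPM (log axis) of 1 gene in the 12 hearts by group, with the marker shape giving the replicate, the horizontal bar the mean and the whiskers the SD of 3 hearts. All 5 genes have their highest mean in Myh6-tg hearts, where Lox lies between 454 and 636 CPM and Loxl2 of replicate 1 lies apart at 49.9 CPM.

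The EIIa comparison asks whether these genes differed at day 30 in mice that expressed the repeat in all tissues. Lox was the only member called higher by the quasi-likelihood test of edgeR, at an adjusted p (Benjamini-Hochberg over all 14908 genes tested) under 0.05, while 8.65% of all genes tested were called higher and 8.30% lower. Its log2 fold change was 1.91 ± 0.31 (SE) with an edgeR adjusted p of 0.0166, which is a fold of 3.77 and the 346th largest of all genes tested. Loxl1 (0.62 ± 0.18, edgeR adjusted p = 0.0509) lay just outside the threshold. The values of Loxl4 (1.02 ± 0.50, adjusted p = 0.184 in edgeR), Loxl3 (0.30 ± 0.13, 0.137) and Loxl2 (-0.06 ± 0.34, 0.915) did not pass. In 3 of the 5 genes (Lox, Loxl1 and Loxl3) every EIIa-tg heart lay above every control, where 20.0% of all genes tested did so, and none lay below, where 21.1% did. DESeq2 called 2 of the 5, adding Loxl1 (adjusted p = 0.00828). The edgeR call of Lox was lost when EIIa-ctl replicate 1 (adjusted p = 0.0769), EIIa-ctl replicate 3 (0.0785), EIIa-tg replicate 1 (0.0566) or EIIa-tg replicate 3 (0.0529) was left out, with log2 fold changes between 1.62 and 2.18 over all 6 omissions. With EIIa-ctl replicate 1 or EIIa-tg replicate 1 left out, edgeR called 0 genes in all, against 2527 with all 6 hearts and 5204 at an unadjusted p under 0.05. At an adjusted p under 0.01 together with a log2 fold change of at least 1 no gene passed in edgeR (0.00%), whose lowest adjusted p was 0.0135. By DESeq2 Lox had 1.92 ± 0.30 (adjusted p = 2.64e-08), which lies within those stricter thresholds.

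The control hearts differ in age, in Cre line and in oil injection, which cannot be told apart, and show how far the family varied without the expressed repeat. The Myh6-ctl hearts were also the reference of the comparison in which the family was noticed. Lox was 10.6 ± 1.41 CPM in Myh6-ctl and 5.92 ± 1.495 CPM in EIIa-ctl hearts, without overlap, and its log2 fold change of 0.85 ± 0.23 (SE) did not pass (edgeR adjusted p = 0.206, unadjusted p = 0.00530). Non-overlap in this direction was found in 8.34% of the 14990 genes tested, and in the other direction in 9.12%. Loxl1 (0.17 ± 0.23), Loxl2 (-0.41 ± 0.28), Loxl3 (0.13 ± 0.25) and Loxl4 (0.29 ± 0.62) overlapped between these groups, with edgeR adjusted p between 0.629 and 0.907. Thus edgeR called 0 of the 5 members, 1 at an unadjusted p under 0.05, and DESeq2 and limma on FPKM called 0. Few genes were called between the control groups at all, 0.0200% higher and 0.0133% lower, and 0.0334% at the stricter threshold.

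The Myh6 comparison asks how the hearts labelled Myh6-tg differed 30 days after the start of tamoxifen, and for the members it is a description only. All 5 genes were higher, and in all 5 every Myh6-tg heart lay above every Myh6-ctl heart, which was the case for 19.8% of the 15298 genes fitted (20.3% lay below). The log2 fold changes were 5.74 ± 0.26 (SE) for Lox, 3.17 ± 0.33 for Loxl3, 2.08 ± 0.56 for Loxl4, 1.91 ± 0.45 for Loxl2 and 1.89 ± 0.25 for Loxl1. Among all genes fitted Lox ranked 37th from the top, Loxl3 173rd and Loxl4 510th, and Loxl2 and Loxl1 ranked 604th and 611th. The range of the 5th to 95th percentile of all genes was -1.75 to 1.69, so that even the smallest change of the family lay beyond it. Leaving out Myh6-tg replicate 1 changed Loxl2 from 1.91 to 2.29, and leaving out Myh6-ctl replicate 3 changed Loxl4 from 2.08 to 3.01. On the FPKM scale the median of all genes itself was 0.34 higher in Myh6-tg hearts, so that the family's summed FPKM includes that shift, while TMM values do not (median 0.03). The EIIa and Myh6 comparisons differ in age, Cre, and duration of expression, and the difference between them was not tested for the family.

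**Figure D3:**
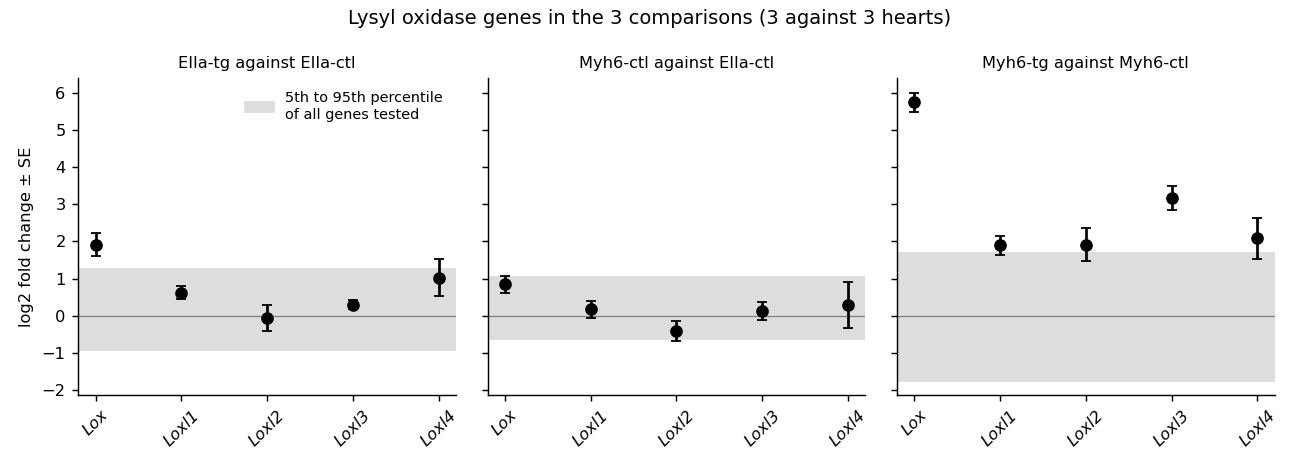
Points show the log2 fold change of each lysyl oxidase gene with its SE as whiskers in the 3 comparisons (3 against 3 hearts), and the grey band spans the 5th to 95th percentile of all genes tested. Lox is beyond the band in EIIa-tg hearts (1.91), no member is beyond it between the controls, and all 5 are beyond it in Myh6-tg hearts.

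To place the family among the genes it works with, 95 genes were listed by role, as substrates, activators, processing enzymes, copper handling genes and known regulators. The lists, like the family, were chosen with earlier results of these hearts known. Their counts are therefore a description and no independent support. In the EIIa comparison 91 of them were tested, of which edgeR called 15 higher and 2 lower, with a median log2 fold change of 0.25 against 0.02 over all genes. Of all genes tested there 8.65% were called higher and 8.30% lower. The Myh6 comparison had 39 called higher and 5 lower of 91, with a median of 0.72 against 0.03, where 8.96% of all genes were called higher and 9.38% lower and 3.97% passed the stricter threshold in either direction. The counts of each list and of the cell type markers below are to be read beside these shares. Between the control groups edgeR called 0 of 90, 15 at an unadjusted p under 0.05, and DESeq2 called 5. The EIIa counts fell to 0 when EIIa-ctl replicate 1, EIIa-ctl replicate 3 or EIIa-tg replicate 1 was left out and reached 23 higher and 8 lower without EIIa-tg replicate 2. In the Myh6 comparison 20 higher and 1 lower were left without Myh6-ctl replicate 1, 24 and 2 without Myh6-tg replicate 2, and 23 and 2 without Myh6-tg replicate 3.

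Fibrillar collagens, the main substrates of Lox, were called higher in Myh6-tg hearts in 5 of 9 tested genes and in EIIa-tg hearts in 0 of 9. Col5a2, which helps to nucleate collagen I fibrils, rose from 53.6 ± 14.2 to 453 ± 143 CPM in Myh6-tg hearts (log2 fold change 3.10 ± 0.34, edgeR adjusted p = 0.00270). The collagen I chains Col1a1 (2.11 ± 0.29, adjusted p = 0.00515 in edgeR) and Col1a2 (2.08 ± 0.31, 0.00653) rose together, and so did Col5a1 (1.45 ± 0.34, 0.0262). Col11a1, a minor fibrillar chain, had 0 counts in every Myh6-ctl heart and 215 to 515 in Myh6-tg hearts, so that at 6.85 ± 2.56 CPM it was at least 87.9-fold higher than the floor of 3 counts per library. Col3a1, the chain of collagen III, was at 418 ± 83.5 and 1168 ± 629 CPM and did not pass (1.5 ± 0.46, edgeR adjusted p = 0.0587). In EIIa-tg hearts Col1a1 had 0.82 ± 0.27 (adjusted p = 0.0717 in edgeR) and Col3a1 0.83 ± 0.33 (0.115). Of the 9, 6 had an unadjusted p under 0.05 there and DESeq2 called 3.

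Elastic fibre genes, which encode the substrates and scaffold of Loxl1, were called in 10 of 15 cases in Myh6-tg hearts, 9 higher and 1 lower, and in EIIa-tg hearts 4 were higher and 1 lower. Ltbp2, a microfibril-associated protein, rose from 4.29 ± 0.639 to 174 ± 73.6 CPM in Myh6-tg hearts (5.36 ± 0.38, edgeR adjusted p = 0.00102), a change of about the size seen for Lox. Elastin itself (Eln) rose from 30.3 ± 13.9 to 241 ± 97.3 CPM (3.01 ± 0.46, adjusted p = 0.00700 in edgeR). Mfap2 (2.70 ± 0.25, edgeR adjusted p = 0.00176), Fbln2 (1.98 ± 0.22), Fbn1 (1.91 ± 0.38) and Fbln5 (1.76 ± 0.21), the fibulin that binds elastin, rose as well. Efemp1, another fibulin, fell from 13.5 ± 3.33 to 1.86 ± 0.207 CPM (-2.84 ± 0.27, edgeR adjusted p = 0.00205). In EIIa-tg hearts Mfap2 rose from 4.10 ± 0.791 to 8.78 ± 2.69 CPM (1.10 ± 0.25, adjusted p = 0.0275 in edgeR), together with Fbln1, Fbln2 and Efemp2, and Emilin2 fell (-0.80 ± 0.20). Eln (0.29 ± 0.17, edgeR adjusted p = 0.262) and Fbn1 (0.31 ± 0.25, 0.415) did not pass there.

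Among the proteins that cleave or hold the enzymes and their substrates, 7 of 11 were higher in Myh6-tg hearts and 1, Thbs1, in EIIa-tg hearts. Bmp1, the protease that removes the propeptide of Lox, rose from 40.4 ± 5.80 to 75.6 ± 2.73 CPM in Myh6-tg hearts (0.92 ± 0.17, edgeR adjusted p = 0.0124) and was at 0.23 ± 0.11 (0.184) in the EIIa comparison. Postn, a matricellular protein that brings Bmp1 to the matrix, rose from 86.1 ± 35.5 to 1592 ± 752 CPM in Myh6-tg hearts (4.23 ± 0.52, adjusted p = 0.00391 in edgeR), and in EIIa-tg hearts had 0.82 ± 0.35 (0.138). Fibronectin (Fn1), a matrix protein that binds Bmp1, rose 2.22 ± 0.42 in Myh6-tg hearts (edgeR adjusted p = 0.0139), with 0.41 ± 0.19 (0.167) in EIIa-tg hearts. Adamts2, which cleaves procollagen, rose by 2.09 ± 0.29. Thbs1, a matrix protein that activates latent TGF-beta, was called in both, at 3.13 ± 0.28 (edgeR adjusted p = 0.00165) in Myh6-tg and 1.85 ± 0.35 (0.0194) in EIIa-tg hearts.

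Genes of procollagen hydroxylation and folding, which make the hydroxylysines that Lox acts on and fold the triple helix, moved in both directions in Myh6-tg hearts, 7 higher and 3 lower of 18. The prolyl 3-hydroxylases P3h1 (1.07 ± 0.18, edgeR adjusted p = 0.00960) and P3h3 (1.16 ± 0.29, 0.0306) and the disulphide isomerase P4hb (1.01 ± 0.24, 0.0247) rose. P4ha3 was also called, with 0 to 15 counts in Myh6-ctl and 39 to 177 in Myh6-tg hearts. Those that fell were Colgalt2 (-1.63 ± 0.29, adjusted p = 0.0112 in edgeR), P4ha1 (-1.03 ± 0.24, 0.0249) and the collagen chaperone Serpinh1 (-0.84 ± 0.22, 0.0379). Plod2, the telopeptide lysyl hydroxylase, was at 33.3 ± 14.1 and 51.5 ± 21.0 CPM and did not pass (0.65 ± 0.41, edgeR adjusted p = 0.308). It did with the replicate number as a block (edgeR adjusted p = 0.0488), a pairing taken from these same counts. In EIIa-tg hearts 1 of 18 was called, P3h2, which rose from 5.98 ± 1.91 to 35.9 ± 15.3 CPM (2.59 ± 0.33, adjusted p = 0.0135 in edgeR), and Plod2 was at 0.03 ± 0.13 (0.903).

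Genes that handle copper, the cofactor of the enzymes, were called in 1 of 10 in Myh6-tg hearts, the metallothionein Mt2 (2.25 ± 0.36, edgeR adjusted p = 0.00852). The list's median log2 fold change there was 0.01. In EIIa-tg hearts Mt2 rose from 6.49 ± 0.229 to 56.8 ± 32.8 CPM (3.14 ± 0.44, adjusted p = 0.0147 in edgeR), Mt1 rose from 39.6 ± 1.92 to 124 ± 55.7 CPM (1.66 ± 0.30, 0.0179), Cp rose by 0.49 ± 0.14 and the copper importer Slc31a1 fell by 0.39 on the log2 scale (SE 0.09). Atp7a, the pump that loads copper into the lysyl oxidases in the secretory pathway, was low in all groups, with means of 1.33 to 2.85 CPM. It did not pass in the EIIa (-0.55 ± 0.37, edgeR adjusted p = 0.320) or the Myh6 comparison (-0.75 ± 1.01, 0.649), and the second value turned to 0.18 with the replicate block.

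TGF-beta ligands, receptors and target genes, known inducers and companions of Lox, were called higher in 7 of 12 genes in Myh6-tg and in 4 of 12 in EIIa-tg hearts, with none lower in either. Tgfb2 rose in both, from 31.3 ± 20.1 to 134 ± 52.0 CPM in the Myh6 groups (2.12 ± 0.56, edgeR adjusted p = 0.0378) and from 13.8 ± 4.57 to 67.5 ± 28.5 CPM in the EIIa groups (2.29 ± 0.33, 0.0157). The target gene Ccn2 reached 2334 ± 184 CPM in Myh6-tg (3.47 ± 0.56, edgeR adjusted p = 0.00875) and 372 ± 128 CPM in EIIa-tg hearts (1.97 ± 0.25, 0.0135). The receptor gene Tgfbr2 was called in EIIa-tg hearts (0.50 ± 0.11). The other receptor gene, Tgfbr1 (1.35 ± 0.32), and the ligand gene Tgfb3 (1.21 ± 0.28) were called in Myh6-tg hearts.

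Of 10 hypoxia genes, which comprise subunits of the hypoxia-inducible factors, for which Lox is a known target, and other known targets, 3 were higher and 1 lower in Myh6-tg hearts. Slc2a1 (1.64 ± 0.23, edgeR adjusted p = 0.00561), Adm (1.44 ± 0.30, 0.0167) and Bnip3 (1.31 ± 0.26, 0.0153) rose, while Vegfa fell from 158 ± 49.1 to 52.3 ± 24.4 CPM (-1.58 ± 0.36, 0.0240). In EIIa-tg hearts edgeR called 0 of 10, 3 at an unadjusted p under 0.05, and DESeq2 called 3. Of the 6 Snail, Zeb and Twist genes 0 were called in Myh6-tg hearts (2 at an unadjusted p under 0.05 and 1 by DESeq2) and 2 in EIIa-tg hearts, Snai1 (1.06 ± 0.29, edgeR adjusted p = 0.0429) and Zeb2 (0.43 ± 0.12, 0.0481). In Myh6-tg hearts Snai1 had 0.96 ± 0.37 (edgeR adjusted p = 0.108). It passed with the replicate number as a block (edgeR adjusted p = 0.0410), a pairing taken from these same counts.

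**Figure D4:**
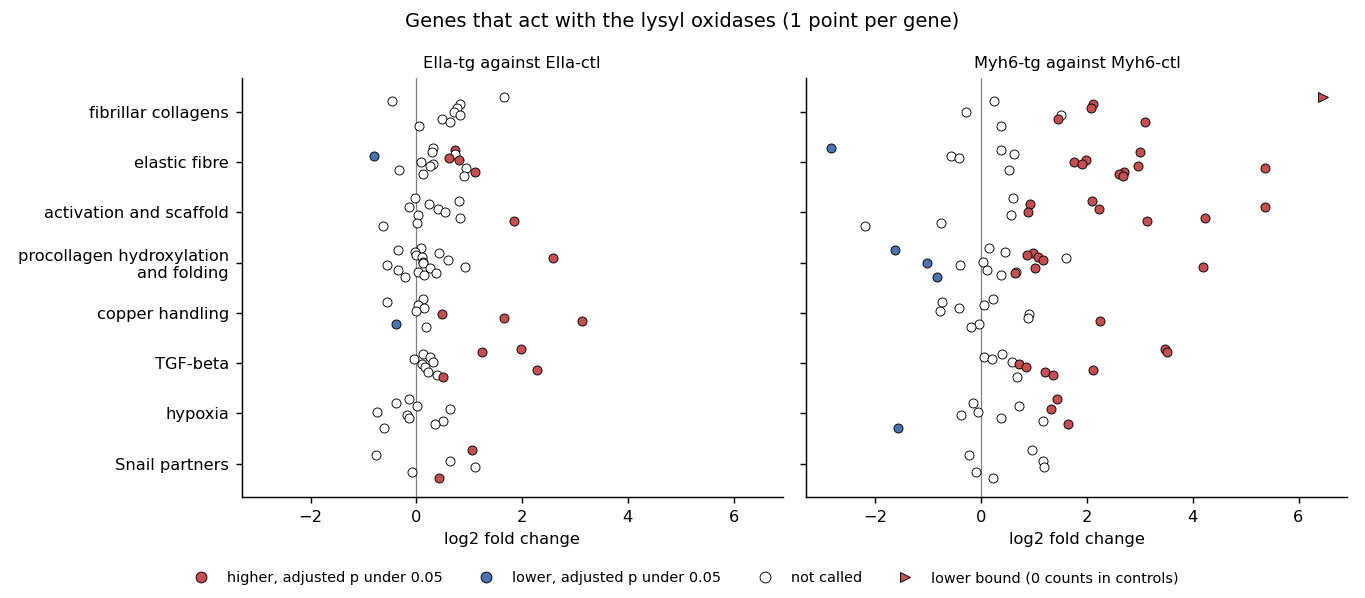
Each point is the log2 fold change of 1 gene in 8 lists, in EIIa-tg (left) and Myh6-tg hearts (right), filled red where called higher and blue where called lower, and the triangle is the lower bound for Col11a1. Most filled points of the Myh6 comparison lie to the right of 0, elastic fibre and procollagen hydroxylation genes have 10 each, and the copper list has 1.

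Markers of several cell types also differed between the groups, and in RNA from whole hearts fewer cells of a type and less RNA per cell cannot be told apart. Of 8 activated fibroblast markers 5 were higher in Myh6-tg hearts (Cthrc1, Comp, Cilp, Ddah1 and Runx1), and the list summed to 473 to 1754 CPM against 230 to 321 in Myh6-ctl hearts. Cilp alone had a mean of 724 ± 481 CPM in Myh6-tg hearts. Meox1 (log2 fold change 1.19 ± 0.49) was not called there, and Fap (-0.24 ± 0.34) and Acta2 (-0.13 ± 0.31) were below 0 and not called. In EIIa-tg hearts the activated list summed to 174 to 374 CPM against 199 to 391 in controls, with Cilp higher and Ddah1 lower. The 8 resting fibroblast markers summed to 1824 to 2686 CPM in EIIa-tg against 1187 to 1475 in EIIa-ctl hearts, with Dcn, Pdgfra and Pi16 called higher, and to 1117 to 2877 CPM in Myh6-tg against 1588 to 1944 in Myh6-ctl hearts, with Pdgfra called higher and Scara5 lower. All 8 macrophage markers were higher in EIIa-tg hearts, where they summed to 544 to 742 CPM against 285 to 422, while 0 of 8 were called by edgeR in Myh6-tg hearts (2 at an unadjusted p under 0.05, and 1 by DESeq2), with sums of 669 to 1291 against 515 to 697 CPM. Cardiomyocyte markers summed to 10175 to 30211 CPM in Myh6-tg against 28687 to 39373 in Myh6-ctl and to 18081 to 33074 CPM in EIIa-tg against 37216 to 44802 in EIIa-ctl hearts, with 4 (Myh6, Tnni3, Myl2 and Myl3) and 2 (Ryr2 and Myl3) of 8 called lower. The cardiomyocyte markers Tnnt2 (0.44 ± 0.48) and Actn2 (0.58 ± 0.30) had log2 fold changes above 0 in Myh6-tg hearts and were not called. Of the smooth muscle and pericyte markers Cnn1 was higher and Abcc9 lower in both transgenic groups, and Myh11 was lower in Myh6-tg hearts. The endothelial markers Cdh5, Kdr and Tie1 were lower in EIIa-tg hearts. Lymphocyte markers summed to at most 4.602 CPM in any heart, with Ms4a1 lower in Myh6-tg hearts (0 to 3 counts against 17 to 24). Adipocyte markers summed to at most 4.09 CPM, with Ucp1 at 0 in the EIIa groups. Among neural markers, Olig2 was at 0 in the Myh6 groups and Syt1 at 0 in Myh6-tg hearts. The part of these cell types in the lysyl oxidase values was not tested.

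Likeness of pattern was measured as Pearson's r of log2 CPM over the 12 hearts among genes whose mean reached 5 CPM, and it is mostly set by the distance of Myh6-tg from the other groups. The 5 genes most like Lox were Fam124a, Sphk1, Qsox1, Chpf2 and Arfip1, each with r of 0.99. Those most like Loxl1 were Smap1, Trim41, Col5a2, Srpx2 and Col1a1 (0.97 to 0.99), of which Col5a2 and Col1a1 are collagen genes, and those most like Loxl2 were Csrp1, Islr, Sparc, Col5a1 and Plxdc2 (0.93 to 0.95). Eln and Fbln5 (0.98) were among the 5 most like Loxl3, with Cttn, Clic4 and Arhgef5, and Cttnbp2nl, Uimc1, Zswim8, Top3a and Tln1 (0.94 to 0.96) were most like Loxl4. Taken as deviations from the group means, which removes the distance between groups, the lists changed. Lox then went with Spry1 (0.93) and Loxl2 with the collagen VI gene Col6a2 (0.98), with Sparc and Islr (0.96) retained. By contrast, the 5 genes most like Loxl1 no longer held Col5a2 or Col1a1, and those most like Loxl3 no longer held Eln or Fbln5. Within the family, Lox and Loxl1 had r of 0.94 over the 12 hearts but -0.07 in deviations, and Lox and Loxl3 0.96 and 0.16. Loxl2 kept r of 0.67 with Loxl1 and 0.59 with Loxl3 in deviations. These values share libraries and depth, rest on 12 hearts, with deviations that sum to 0 within each group of 3, and are given without a test.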

How the data were processed

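RNA from 12 mouse hearts (3 in each of 4 groups) was read by the authors as 150 bp paired ends, mapped to GRCm38 with HISAT2 and summarised per gene; the submitters' notes list HISAT2 2.0.4, StringTie 2.2.1 and DESeq2. The deposited count values are whole reads per gene, and the deposited FPKM values, made by the authors, are scaled to gene length and depth. The counting program, annotation release and use of strand are not given in the sources used here. Groups were taken from the sample titles.

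The 5 members and all gene lists were chosen with earlier results of these data known. Counts were filtered by expression, normalised by TMM and tested with the quasi-likelihood test of edgeR 4.0.16 (R 4.3.3) in fits of 3 against 3 hearts, with Benjamini-Hochberg adjustment over all genes and calls at an adjusted p under 0.05. The SE is the log2 fold change divided by the square root of F. The labels call the 3 hearts of a group biological replicates. The floor of 3 counts covers counting error only. Named were the 5 members, in each list up to 4 called genes per direction with a log2 fold change of at least 1, called markers or those at 0, 11 defining genes, and the 5 genes most like each member. Col5a1, Fbln1, Efemp2, Emilin2, Serpinh1, Cp, Slc31a1, Tgfbr2 and Zeb2, and Fbln2 in EIIa-tg hearts, lie outside this rule and were chosen after their values were seen. A gene that the rule would name is not reported here. The alternatives were DESeq2 1.42.0, limma 3.58.1 on log2(FPKM + 1) or log2(FPKM + 0.1), other factors and filters, all hearts in 1 fit, a sex term, the replicate block, no mitochondrial genes, stricter thresholds and leaving out each heart.

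Same-numbered Myh6-ctl and Myh6-tg hearts deviated together from their group means (r of 0.28, 0.18 and 0.19 across genes), so the numbers were taken to pair these groups on the data alone, while the labels name no shared litter or day. Replicate 1 was the only male of each group, so sex and a shared origin cannot be told apart here. Deviations also cancel out within a group, which ties these correlations together. The values given are from fits without the block. In the Myh6 comparison blocked values stand beside them where the call of a named pathway gene changed. In the EIIa comparison the block left 1 gene called in all, and blocked values of pathway genes are not printed. On simulated counts with 200 changed genes, edgeR called 88% of log2 changes of 2 and 59% of changes of 1 in the EIIa comparison, 82% and 31% between controls, and 70% and 12% in the Myh6 comparison. In the same order edgeR made 7, 6 and 10 false calls and DESeq2 made 34, 43 and 54, so in this setting genes called by DESeq2 alone were less certain. These counts were drawn with dispersions estimated by edgeR, so they do not compare the tools on even terms. Far fewer genes were changed than edgeR called in the EIIa (2527) and Myh6 (2805) comparisons, which made the adjustment stricter than in the data. The shares called are therefore not the power in those comparisons.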

Additional observations from a re-analysis of the deposited data

Results flagged for a closer look

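In 3 cell type markers every heart of the transgenic group lay on one side of its controls in the EIIa comparison and on the opposite side in the Myh6 comparison, and the difference was not tested. Of all genes tested, 20.0% lay above and 21.1% below their controls in this way in the EIIa comparison, and 19.8% and 20.3% in the Myh6 comparison. Scara5, a resting fibroblast marker, had 0.35 on the log2 fold change scale in EIIa-tg hearts, which did not pass (edgeR adjusted p = 0.0548), and -0.96 in Myh6-tg hearts. Ddah1, from the activated fibroblast list, had -1.70 and 1.97. Adgre1, a macrophage marker, had 1.04 and -0.60, and the second value did not pass (edgeR adjusted p = 0.152). None of the 5 lysyl oxidase genes showed such opposite directions.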

How the results depend on the processing

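The log2 fold changes of the members kept their direction under the alternatives run (for Loxl4 limma on filtered FPKM gave a value only in the Myh6 comparison) except Loxl2 in the EIIa comparison (0.09, 0.10 and 0.09 by limma on FPKM with pseudocount 1, 0.1 and without a filter, and -0.27 to 0.26 with 1 heart left out) and, between the controls with 1 heart left out, Loxl1 (-0.04 to 0.41), Loxl3 (-0.12 to 0.34) and Loxl4 (-0.65 to 0.66). Lox in EIIa-tg hearts (1.62 to 2.18 with 1 heart left out) was not called with the replicate block (1.87, adjusted p = 0.0631 by edgeR), by limma without a filter (1.45) or by edgeR at the stricter thresholds (1.91, where no gene passed). Loxl1 in EIIa-tg hearts (0.48 to 0.86) was called by DESeq2 (0.63), with RLE factors (0.63), without a filter (0.62), with a CPM filter (0.63) and by limma with pseudocount 1 (0.80), and Loxl3 by limma with pseudocounts 1 (0.34) and 0.1 (0.48). In the Myh6 comparison limma on FPKM gave Loxl1 2.23, 2.29 and 2.23, Lox 6.08 with pseudocount 0.1 and Loxl4 1.14 with pseudocount 1 and 1.14 without a filter, and Loxl4 ranged from 1.72 to 3.01 with 1 heart left out. The same-number correlations were 0.07, -0.08 and -0.08 in the EIIa comparison and 0.12, 0.07 and -0.05 between the controls, so there the hearts share only a number, and not every heart correlated best with its own number. The replicate block left 1 gene called in the EIIa comparison and 27 between the controls, with 0 pathway genes higher and 0 lower in the EIIa comparison. It turned Atp7a to -0.31 between the controls and to 0.18 in the Myh6 comparison, where it gave Loxl4 2.38 and 45 pathway genes higher and 6 lower and, beside Plod2 and Snai1, changed no other call of a named pathway gene, and it turned Eln between the controls to -0.03, as did the sex term (-0.03) and limma (-0.02, -0.04 and -0.02). Genes called in the EIIa comparison (2527) numbered 227 with all 12 hearts in 1 fit, 1680 with a sex term, 0 by limma without a filter, 0 at the stricter thresholds and 0 to 4079 with 1 heart left out, and pathway genes 27 higher and 4 lower by DESeq2, 2 and 0 in 1 fit, 31 and 1 by limma with pseudocount 1, 0 lower with pseudocount 0.1, 0 and 0 without a filter or at the stricter thresholds, and 0 to 23 higher and 0 to 8 lower with 1 heart left out. Between the controls (5 genes) the counts were 428 by DESeq2, 65 without a filter, 11 with a CPM filter, 13 with a sex term, 8 and 1 by limma with pseudocount 1 and without a filter, and 3 to 98 with 1 heart left out, with 5 pathway genes higher by DESeq2, 1 without a filter and 0 to 3 with 1 heart left out. In the Myh6 comparison (2805 genes) they were 5049 in 1 fit, 4265 by limma with pseudocount 1, 608 at the stricter thresholds and 798 to 4269 with 1 heart left out, with 19 pathway genes higher and 1 lower at the stricter thresholds, 3, 3 and 1 lower by limma, and 20 to 49 higher and 1 to 7 lower with 1 heart left out. Other reversals with 1 heart left out were Plod2 in the EIIa comparison (-0.08 to 0.12), Atp7a in the Myh6 comparison (-1.31 to 0.56) and, between the controls, Col3a1 (-0.11 to 0.46), Fbn1 (-0.52 to 0.16), Eln (-0.35 to 0.33), Bmp1 (-0.04 to 0.16), Fn1 (-0.08 to 0.49), Plod2 (-0.14 to 0.48) and Atp7a (-0.76 to 1.13). Of the values of named pathway genes, 247 of 322 in the EIIa comparison and 557 of 644 in the Myh6 comparison kept their direction and side of the threshold. Levels computed from merged exon length instead of FPKM moved by less than 1 SD except for Loxl3 in EIIa-ctl hearts (1.52 against 1.68). The causes were not tested. Loxl4, with 24 to 355 reads per heart, is the member whose values depth limits most.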
